A study of Mus musculus with 11 samples.

Results

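Mir221 and Mir222 are a pair of neighbouring microRNA (miRNA) genes known for targeting p27, the cyclin-dependent kinase inhibitor encoded by Cdkn1b. They were taken by name from a deposited table of 3859 small RNA genes, and both were found and passed the filter on low values, which 1419 transcripts did, 901 of them miRNAs. The table covers mouse cells during reprogramming, with 11 libraries and 1 for each stage. Secondary mouse embryonic fibroblasts (MEF) were sampled before doxycycline, the drug that switched on their Oct4, Klf4, Sox2 and Myc cassette, and each day from day 1 to day 8 of it. An established line of induced pluripotent stem cells (iPSC) and embryonic stem cells (ESC), both grown in N2B27 medium with LIF and 2 kinase inhibitors (2i), were the pluripotent controls. All libraries are labelled Mbd3f/-, a genotype with 1 floxed and 1 deleted copy of Mbd3, which encodes a component of the repressive NuRD complex. The ESC column bears the name V6.5, which the series' design text uses for wild-type as well as Mbd3f/- ESC, so its genotype is unclear. Per the labels' protocols, cells of days 3 to 8, iPSC and ESC were plated on irradiated human foreskin fibroblasts, while no feeder is named for MEF and days 1 and 2. From MEF to day 8, feeders, the change from serum to serum replacement medium with 2i, and later days cannot be told apart.

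A miRNA is cut from a hairpin transcript and guides the silencing complex to messenger RNAs that pair with its seed, bases 2 to 8 of the mature strand. miR-221 and miR-222 share their seed and are best known for lowering p27 and the related inhibitor p57, which hold cells out of the cell cycle, and the receptor Kit. They are abundant in endothelial cells, fibroblasts and many tumours, and their mature 3p strands are conserved between mouse and human.

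Both hairpins lie on the minus strand of the X chromosome (GRCm38). Mir221 (ENSMUSG00000065422, 95 nt) spans X:19146294-19146388 and Mir222 (ENSMUSG00000065471, 79 nt) X:19146893-19146971, 504 nt apart. GENCODE release M21 placed no other gene over them, and the nearest was the noncoding transcript Gm14636 on the same strand, 10010 nt away on the upstream side. The RefSeq sequences (GRCm38.p6) show what the pair has in common. The mature 3p strands are given with the seed in capitals, together with the only other mouse miRNA with this seed among 1738 mature entries searched, miR-1928.
mmu-miR-221-3p: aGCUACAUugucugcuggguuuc
mmu-miR-222-3p: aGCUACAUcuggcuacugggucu
mmu-miR-1928: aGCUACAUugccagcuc
miR-221-3p and miR-222-3p were identical over their first 8 bases and at 11 of 23 positions without gaps. miR-1928 matched miR-221-3p over its first 10 bases. Mir1928 was listed at 0 in 10 libraries and at 64.0 FPKM, the worth of 1.00 read, in iPSC. The hairpins follow, with the 3p strand in capitals, because the table gives 1 value per hairpin gene and does not separate the 2 arms.
Mir221 hairpin: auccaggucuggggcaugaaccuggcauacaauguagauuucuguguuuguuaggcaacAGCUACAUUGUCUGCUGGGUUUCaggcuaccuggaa
Mir222 hairpin: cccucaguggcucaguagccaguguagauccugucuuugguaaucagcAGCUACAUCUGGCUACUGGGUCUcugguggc

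Depth was recovered from the steps of low values and lay between 11600000 implied mapped reads in MEF and 21800000 on day 7. The genes in the table took 22.7% of these reads on day 7 and 27.7% on day 8, and between 44.9% and 59.2% in the other 9 libraries. FPKM, which are scaled to transcript length and to all mapped fragments, were therefore read beside each gene's share of the recovered miRNA reads. Intervals on reads and shares are 95% exact (Clopper-Pearson) for shares and Poisson-based for folds. They cover counting error only, because each stage has 1 library. PCR copies were not marked, so even the counting error can be understated. The 12 miRNAs of pluripotent cells summed to 21449 FPKM in MEF, 21923200 in iPSC and 17966800 in ESC, although Mir295 of that list is listed at 0 in both lines. The 8 tested miRNAs of fibroblasts and mesenchyme summed to 25552800 FPKM in MEF and 64944700 on day 1. Their sum was 6024740 FPKM in iPSC and 26405900 in ESC. Mir143 of that list is listed at 0 in MEF, and held 40549900 FPKM on day 1 and 17316200 in ESC. Each of the other members was higher in MEF than in either line. Mir21 was at 15382600 FPKM in MEF, 1929470 in iPSC and 7054880 in ESC.

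Mir221 and Mir222 were present at every stage, and both were higher on day 3 than on day 2, 3.07-fold and 2.28-fold. They were high in ESC and lowest of all in the iPSC line, where they stood 19.2-fold and 17.5-fold below ESC. Neither had a slope over the 9 libraries of the course that passed the test on FPKM.

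In MEF, Mir221 had 262352 FPKM, against 437336 with 1 day of doxycycline and 314547 a day later. It was at 966360 on day 3, 893239 on day 4, 843489 on day 5, 697754 on day 6, 492784 on day 7 and 584531 on day 8. The iPSC library held 35232 FPKM and the ESC library 676409. Every library of days 3 to 8 was thus above every library of MEF to day 2, and iPSC was the lowest of the 11. Among the 901 tested miRNAs, Mir221 ranked 80 by FPKM in MEF, 47 on day 3, 41 on day 7, 188 in iPSC and 53 in ESC.

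Mir222 had 357376 FPKM before doxycycline, 592000 at day 1 and 470470 at day 2. Its level was 1073000 on day 3, 732756 on day 4, 811240 on day 5, 674734 on day 6, 482255 on day 7 and 590748 on day 8. The iPSC library held 46322 FPKM and the ESC library 811467. Days 7 and 8 of Mir222 lay within the range of MEF to day 2, so these groups overlapped, unlike those of Mir221. Mir222 ranked 66 among the miRNAs in MEF, 45 on day 3, 169 in iPSC and 44 in ESC.

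These values rest on many reads. Mir221 had between 1499 recovered reads in iPSC and 53901 on day 3, and Mir222 between 1151 and 34941 in the same libraries. From the highest level down, the order for Mir221 was day 3, day 4, day 5, day 6, ESC, day 8, day 7, day 1, day 2, MEF and iPSC. For Mir222 it was day 3, ESC, day 5, day 4, day 6, day 1, day 8, day 7, day 2, MEF and iPSC. Down to MEF, the gaps between neighbours in this order were at most 0.48 log2 units for Mir221 and 0.40 for Mir222. The only spread at hand is the residual SD around the linear trend, 0.62 and 0.49 log2 units, and no such gap exceeded it. That SD includes the step at day 3, and neighbours in an ordered list are close by construction, so this does not show that their levels are alike. The gap from MEF down to iPSC was 2.90 and 2.95 log2 units, larger than that SD.

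**Figure D1:**
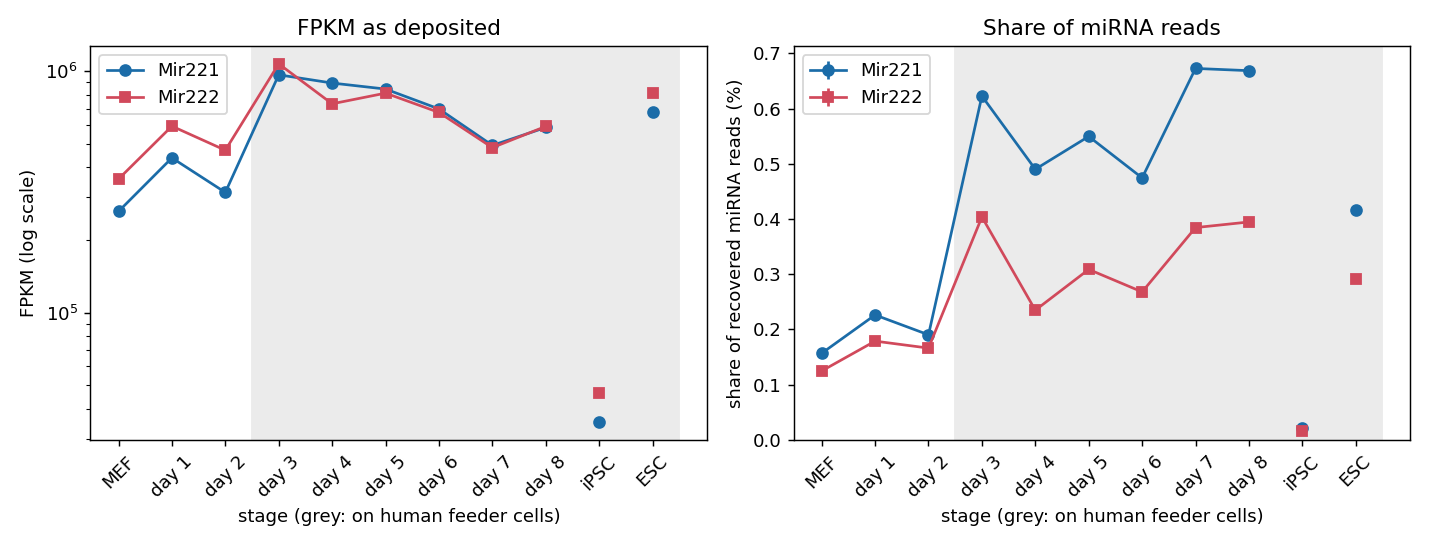
Mir221 (circles) and Mir222 (squares) in the 11 libraries, as FPKM on a log axis (left) and as a share of the recovered miRNA reads in percent with 95% exact intervals that are smaller than the symbols (right). Grey marks libraries labelled as on human feeder cells; both genes are higher on day 3 than on day 2 and lowest in iPSC, and the shares on days 7 and 8 are as high as on day 3 or nearly so.

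The course from MEF to day 8 was tested for a trend with limma on log2(FPKM + 10), with MEF placed at day 0. The slope of Mir221 was 0.12 ± 0.09 per day (SE, n = 9 libraries; limma adjusted p = 0.395) and that of Mir222 was 0.04 ± 0.08 (limma adjusted p = 0.76). Of the 1419 transcripts, 23% were called, 12.5% (177) higher and 10.6% (150) lower with time. A fit with day and day squared, which called 32.6% of the transcripts, did not call Mir221 (limma adjusted p = 0.125) or Mir222 (limma adjusted p = 0.291). With 1 library per stage these p-values measure the scatter of the libraries around a curve, not the spread between cultures. Scaling to the recovered miRNA reads moved the median slope of all tested transcripts from 0.02 to 0.14 and the calls to 336 higher and 107 lower. On that scale the slope of Mir221 was 0.26 ± 0.07 (limma adjusted p = 0.0243) and that of Mir222 was 0.18 ± 0.07 (limma adjusted p = 0.0617). The call of Mir221 thus depended on the scale.

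From MEF to day 1, both genes differed by about as much as the median abundant transcript. Mir221 was 1.67-fold (95% interval 1.62 to 1.71) and Mir222 1.66-fold (1.61 to 1.71) higher on day 1 than in MEF, and 38.1% of tested transcripts were at least 2-fold higher. The median difference of the 631 transcripts with a mean of at least 1000 FPKM was 0.73 log2 units, beside 0.74 for Mir221 and 0.73 for Mir222. From day 1 to day 2 Mir221 differed by -0.48 and Mir222 by -0.33 log2 units.

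The step from day 2 to day 3 was the largest upward difference between successive days for both genes. Mir221 was 3.07-fold higher on day 3 (3.01 to 3.13) and Mir222 2.28-fold higher (2.23 to 2.33), with no replicate check. At this step 15.6% of tested transcripts were at least 2-fold higher and 22.6% at least 2-fold lower. Mir221 was 24th and Mir222 43rd from the top of the 631 abundant transcripts, whose median difference was -0.11 log2 units. In the same step Mir654, an miRNA of the imprinted Dlk1-Dio3 region, went from 147 to 297835 FPKM and the snoRNA Gm24899 from 0 to 29241. Both were named after their values were seen. Of the 8 tested fibroblast and mesenchymal miRNAs 6 were higher on day 3 than on day 2, beside 580 of all 1419 transcripts. The 6 include Mir199a-1, Mir199a-2 and Mir199b, with near equal differences of 0.52, 0.45 and 0.53 log2 units, so they may not be separate counts. The sum of the 8 ranged from 25552800 to 64944700 FPKM in MEF to day 2 and from 11370400 to 32675900 on days 3 to 8. It includes Mir143, which is listed at 0 in MEF and at 40549900 FPKM on day 1. The iPSC library, labelled as on the same feeders, had the lowest level of Mir221 and Mir222. Mir654 and Gm24899 stood at 67.5 and 50.4 FPKM in iPSC, and at 164921 and 14177 in ESC. The part of feeder RNA in the step of Mir221 and Mir222 was not tested.

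**Figure D2:**
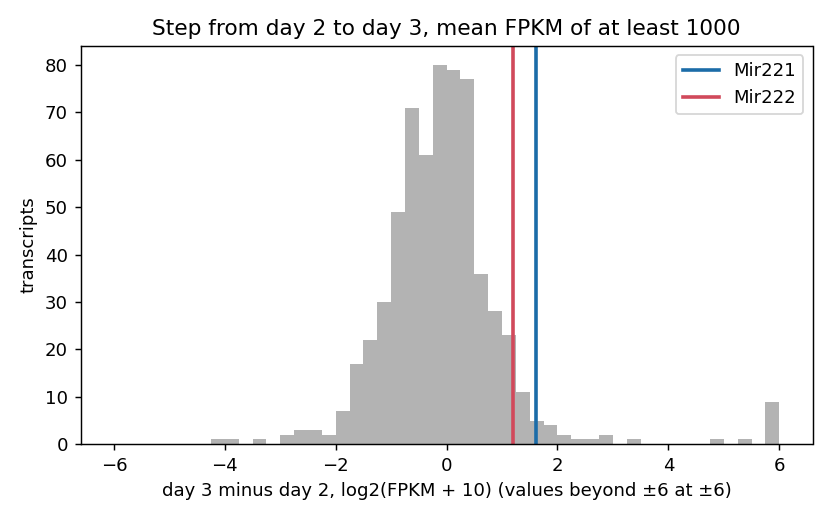
Day 3 minus day 2 in log2(FPKM + 10), as a histogram of the 631 abundant transcripts, with values beyond 6 in either direction drawn at 6. The lines mark Mir221 at 1.62 and Mir222 at 1.19, in the upper tail of the distribution.

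The libraries of days 3 to 8 were compared with those of MEF to day 2. For Mir221 the range was 492784 to 966360 FPKM (median 770622, n = 6) against 262352 to 437336 (median 314547, n = 3), and the groups did not overlap. Such a separation, all 6 above all 3, was seen in 9.16% of all tested transcripts. The mean difference was 1.14 log2 units, and the exact permutation test (two-sided) gave p = 0.0119 (0.0286 after Benjamini-Hochberg adjustment over 12 permutation tests), the smallest that 84 arrangements can give. For Mir222 the range was 482255 to 1073000 (median 703745) against 357376 to 592000 (median 470470). Its mean difference of 0.60 log2 units missed the threshold (exact permutation p = 0.0595, adjusted 0.0893). Both comparisons, like those by share of miRNA reads, were chosen after seeing the data. Their p treats the ordered libraries of 1 course as exchangeable, so a drift over the days can lower it.

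As a share of the miRNA reads, both genes separated. Mir221 took 0.157% of these reads in MEF (0.153% to 0.160%), 0.226% on day 1, 0.190% on day 2 and 0.623% on day 3 (0.617% to 0.628%). On days 4 to 8 its share lay between 0.474% on day 6 and 0.673% on day 7. Mir222 took 0.125% in MEF (0.122% to 0.128%), 0.179% on day 1, 0.166% on day 2, 0.404% on day 3 and between 0.235% and 0.395% on days 4 to 8. On this scale 11.2% of the 1399 transcripts with a length had all 6 later libraries above all 3 earlier ones. The mean differences were 1.60 log2 units for Mir221 and 1.07 for Mir222 (exact permutation p = 0.0119 for each, adjusted 0.0286). A step at day 3 fitted in limma beside the slope was 1.82 ± 0.63 for Mir221 (adjusted p = 0.433) and 1.25 ± 0.65 for Mir222 (adjusted p = 0.477). That fit called 0.141% of the tested transcripts.

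After day 3 the direction depended on the scale. Within days 3 to 8 the FPKM slope was -0.18 ± 0.07 per day for Mir221 (limma adjusted p = 0.142) and -0.18 ± 0.08 for Mir222 (limma adjusted p = 0.17). The median slope of all tested transcripts over these days was -0.10. The exact permutation test over the orders of these 6 libraries gave p = 0.0111 (adjusted 0.0286) for Mir221 and p = 0.0333 (adjusted 0.0571) for Mir222. As a log2 share of miRNA reads the slopes were 0.05 and 0.05 per day (exact permutation p = 0.414 and 0.556, adjusted 0.497 and 0.556). The permutation tests within days 3 to 8, on both scales, were chosen after seeing the data. The genes in the table took a low share of the reads on days 7 and 8. Its part in this difference between scales was not tested. From day 6 to day 7 Mir221 differed by -0.50 and Mir222 by -0.48 log2 units in FPKM, while the median tested miRNA differed by -1.15. From day 3 to day 8 the differences were -0.73 for Mir221 and -0.86 for Mir222. Over the same days the median tested miRNA differed by -0.93 and the median of all tested transcripts by -0.07.

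The neighbours did not keep a constant ratio. The FPKM ratio of Mir222 to Mir221 was 1.36 before doxycycline, 1.35 a day later and 1.496 by day 2. It was 1.11, 0.82, 0.96, 0.97, 0.98 and 1.01 on days 3, 4, 5, 6, 7 and 8. The ratio was 1.31 in iPSC and 1.20 in ESC. All 6 libraries of days 3 to 8 were below all 3 of MEF to day 2, and the 2 pluripotent lines lay in between. The mean log2 ratio of days 3 to 8 minus that of MEF to day 2 was -0.53 (exact permutation p = 0.0119, adjusted 0.0286, the smallest that 84 arrangements can give). This comparison too was chosen after seeing the data and treats the ordered libraries as exchangeable. The slope of the log2 ratio over the course was -0.08 per day (exact permutation p = 0.032, adjusted 0.0571). The raw p of that slope was 0.0788 without MEF, 0.0709 without day 1, 0.0522 without day 5, 0.057 without day 6 and 0.0506 without day 7. In recovered reads the order of the 2 genes was another: Mir222 was at 0.80 of Mir221 in MEF, 0.87 on day 2, 0.48 on day 4 and 0.70 in ESC, below 1 in every library. FPKM divide by an effective length that is 2.88 nt for Mir221 and 1.68 nt for Mir222 under the assumed model, so which gene is more abundant is not settled by these files. The change of the ratio between libraries does not depend on that length.

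**Figure D3:**
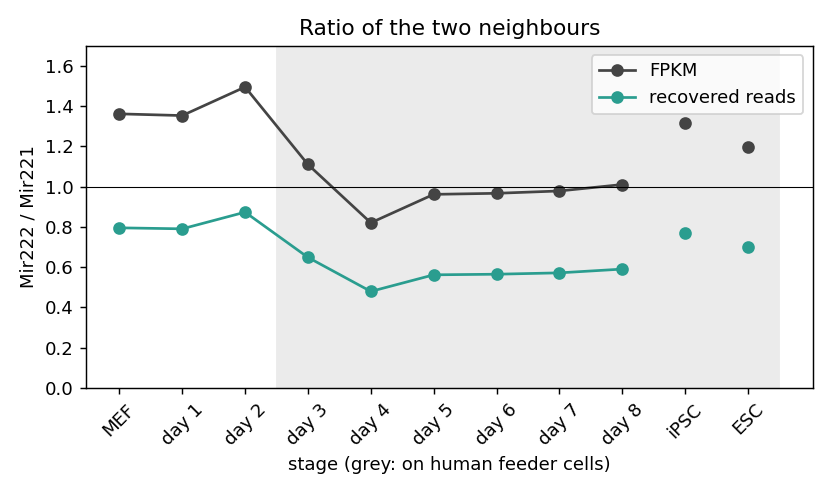
Ratio of Mir222 to Mir221 in each library, in FPKM (dark points) and in recovered reads (green points), with a line at equality and grey shading for libraries labelled as on human feeders. In both scales days 3 to 8 lie below MEF, day 1 and day 2.

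The end points asked how the pair differs between fibroblasts, the last day of the course and the pluripotent lines. On day 8 Mir221 was 2.23-fold (2.18 to 2.28) and Mir222 1.65-fold (1.61 to 1.699) higher than in MEF. At least 2-fold higher were 48.9% of tested transcripts, so many other transcripts differed as much. In iPSC Mir221 was 7.45-fold (7.05 to 7.87) and Mir222 7.72-fold (7.25 to 8.21) lower than in MEF, with 16.5% of transcripts at least 2-fold lower. In ESC the same genes were 2.58-fold (2.52 to 2.64) and 2.27-fold (2.21 to 2.33) higher than in MEF, where 49.7% of transcripts were at least 2-fold higher. The 2 pluripotent lines therefore stood on opposite sides of the fibroblasts for both genes. Each line had 1 library, so no test was possible.

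Between the lines the pair was among the most different abundant transcripts. Mir221 was 19.2-fold (18.2 to 20.2) and Mir222 17.5-fold (16.5 to 18.6) higher in ESC than in iPSC. At least 2-fold higher in ESC were 16.2% of tested transcripts, and the median difference of all was -0.15 log2 units, beside 4.26 for Mir221 and 4.13 for Mir222. They ranked 9 and 10 among the 631 abundant transcripts. As shares of miRNA reads, Mir221 took 0.0210% in iPSC (0.0199% to 0.0221%) and 0.417% in ESC (0.412% to 0.421%), and Mir222 0.0161% (0.0152% to 0.0171%) and 0.292% (0.288% to 0.296%). Against day 8, Mir221 was 16.6-fold and Mir222 12.8-fold lower in iPSC, with 19.9% of transcripts at least 2-fold lower. ESC was within 1.5 times of day 8, at 1.16-fold for Mir221 and 1.37-fold for Mir222 in FPKM, and lower than day 8 by share.

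**Figure D4:**
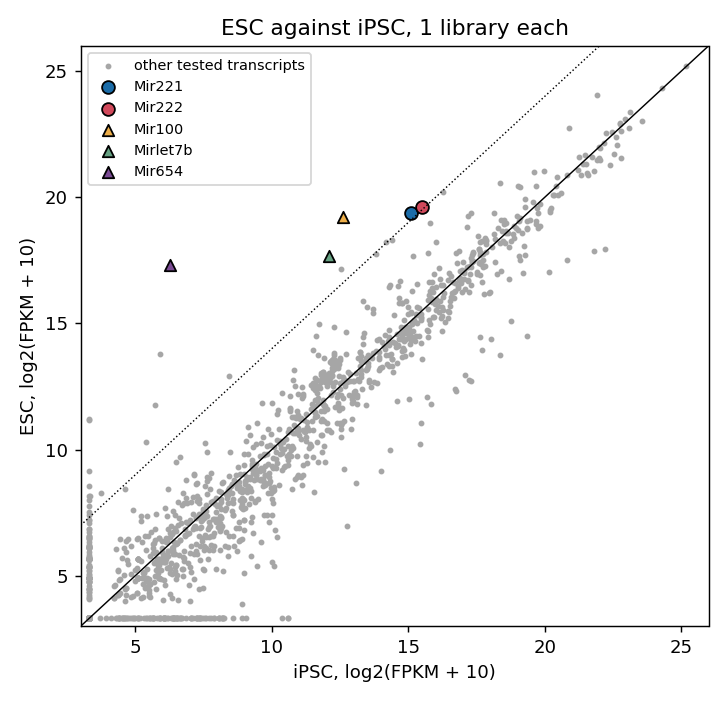
ESC against iPSC for the 1419 tested transcripts in log2(FPKM + 10), with Mir221, Mir222, Mir100, Mirlet7b and Mir654 marked. The solid line is equality and the dotted line is 16-fold higher in ESC; the 5 marked transcripts lie above the dotted line.

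Ahead of the pair in that order were Mir654, Gm24899, Mir100, Gm25802, Mir122a, Mirlet7b, Mir99a and Mir490, named after their values were seen. Mir654 was at 67.5 FPKM in iPSC, the worth of 2.00 reads, and 164921 in ESC. Mir100, a neighbour of a let-7 gene, was at 6216 and 602545 FPKM. Of the 11 abundant transcripts at least 16-fold higher in ESC, 8 were also at least 2-fold higher on day 3 than on day 2. The pair was among the 8, and 61 of the 631 had that step. Abundance is a mean over all 11 libraries, and Mir654 and Gm24899 passed it only through days 3 to 8 and ESC. This overlap is thus partly built in and was not tested. All 8 tested fibroblast and mesenchymal miRNAs were at least 2-fold higher in ESC than in iPSC, beside 16.2% of all tested transcripts. Their median difference was 2.14 log2 units, and they summed to 26405900 FPKM in ESC and 6024740 in iPSC. Mir199a-1, Mir199a-2 and Mir199b had near equal differences, at 3.92, 3.92 and 4.05 log2 units, so the 8 may not be separate counts. None of these 8 was listed at 0 in either line, but they are the 8 of 9 listed genes that passed the filter on low values. The part of fibroblast RNA in the difference between the lines was not tested. In such bulk samples, fewer cells of a type and less RNA per cell cannot be told apart.

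Markers of other cell types were counted in the same way, with no test of a difference from the pair. The endothelial miRNA Mir126, which like miR-221 and miR-222 is known from vessels, was at 204018 FPKM in iPSC and 231538 in ESC. Mir296, the other tested endothelial miRNA, went the other way, from 90549 FPKM in iPSC to 46195 in ESC. Neither Mir126 nor Mir296 was called over the course. Of 9 blood cell miRNAs 5 were higher in ESC than in iPSC, of 5 muscle miRNAs 0 and of 9 neural miRNAs 2, beside 517 of all 1419 tested transcripts. Over the course 4 of the 9 blood cell miRNAs and 5 of the 5 muscle miRNAs fell in limma's test, and 0 of the 9 neural ones were called, where 10.6% of all tested transcripts fell and 23% were called. Of the 9 neural miRNAs, 6 were higher on day 3 than on day 2, as the pair was, beside 580 of all 1419 transcripts. The 6 were the Mir124a and Mir128 gene copies and Mir137, which is listed at 0 on day 2. Among the 8 of the fibroblast list 5 fell and 0 rose. Of its most abundant members, Mir21 fell by 0.37 ± 0.06 per day on the log2 scale (limma adjusted p = 0.00396) and Mir199a-1 by 0.34 ± 0.08 (limma adjusted p = 0.0177). Mir143, listed at 0 in MEF, was not called, with a slope of 1.15 ± 0.73 (limma adjusted p = 0.303). That slope includes the 0. After 1 day of doxycycline Mir143 had 40549900 FPKM, and by day 8 its level was 7360140.

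The profile most like that of the pair was looked for by Pearson correlation over the 11 libraries with the mean of Mir221 and Mir222, among the 629 other abundant transcripts. Mir221 and Mir222 had r = 0.98 with each other, and 0.92 without iPSC. The closest others were Mir452 (r = 0.95), which lies on the X chromosome too, in a GABA receptor gene, then Mir100 (0.94), Mirlet7b (0.94), Mirlet7a-2 (0.86) and Mirlet7a-1 (0.86). The 2 let-7a copies share their mature sequence, so reads could be split between them in a way the sources used here do not state. Without iPSC the 5 closest were Mir452, Mir654, Mir539, Gm24134 and Mir466h, so Mir452 alone of the 5 stayed among them. At the other end were Mir208b (-0.78), Mir184 (-0.74) and Mir425 (-0.72). These correlations describe libraries of 1 course and share its order and depth.

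Mir452 had far lower FPKM than the pair and the same low point. Its level was 1962 FPKM in MEF, 3617 on day 2, 5427 on day 3, 3999 on day 8, 1010 in iPSC and 3700 in ESC. Mirlet7b, a let-7 member that targets cell cycle and growth genes, had 162000 FPKM on day 2, 339796 on day 3, 4367 in iPSC and 210276 in ESC. Mir208b, a cardiac miRNA within a myosin gene, was at 4052 FPKM in MEF, 593 on day 3, 8798 in iPSC and 398 in ESC.

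**Figure D5:**
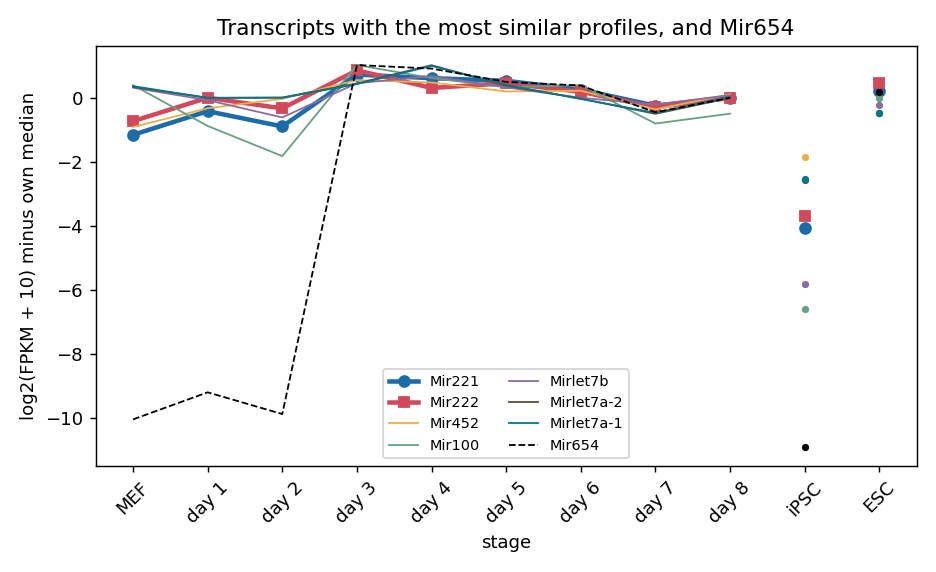
Profiles of Mir221, Mir222, the 5 transcripts with the highest correlation to them and Mir654 (dashed), as log2(FPKM + 10) minus each transcript's median over the 11 libraries. Single points are the iPSC and ESC lines, and the 2 let-7a copies nearly coincide; each of the 8 is lowest in iPSC, and Mir654 is also low in MEF and on days 1 and 2.

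Other miRNAs that act on cell cycle inhibitors were set beside the pair, with no test of a difference. Among 15 further tested miRNAs known to target the p21, p27 and p57 family, 9 rose over the course in limma's test, 0 fell and 6, like the pair on FPKM, were not called, where 12.5% of all tested transcripts rose and 10.6% fell. Their median slope was 0.63 per day, beside 0.02 for all tested transcripts. Of the 6 not called, Mir17 and Mir20a are listed at 0 on day 2 and had slopes of 0.50 ± 0.53 and 0.51 ± 0.50. The 9, named because they were called, were Mir291a, Mir294, Mir295, Mir302a, Mir302b, Mir302c and Mir302d of the pluripotency clusters, which target p21, and Mir20b and Mir106a of the miR-17 family. By mean level the list was led by Mir295, Mir25 and Mir291a, of which Mir25, a miR-106b-25 member, had a slope of 0.05 ± 0.10 (limma adjusted p = 0.776). None of the 15 was at least 2-fold higher in ESC than in iPSC, where 16.2% of all tested transcripts were, and Mir295 is listed at 0 in both lines.

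Among 18 miRNAs known to target cyclins and their kinases, 8 fell, 0 rose and 10 were not called, where 10.6% of all tested transcripts fell and 12.5% rose. The median slope was -0.07 per day, beside 0.02 for all. The 8, named because they were called, were Mirlet7i, Mirlet7f-2, Mirlet7d, Mirlet7c-1, Mir34b, Mir34c, Mir322 and Mir503. By mean level Mirlet7i, Mirlet7f-2 and Mir16-1 led. Mir16-1, which restrains G1 cyclins, had a slope of 0.04 ± 0.08 (limma adjusted p = 0.816). At the step to day 3, where Mir221 and Mir222 were higher, so were 7 of these 18 and 7 of the 15 inhibitor-targeting miRNAs, beside 580 of all 1419 transcripts, a similar share. Mir17 and Mir20a, 2 of those 7 of 15, are listed at 0 on day 2.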

How the data were processed

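Small RNA libraries of the 11 samples were made with the TruSeq kit and size-selected on gel, per the labels' protocols. The deposited table holds FPKM computed by the authors and 0 columns of samples outside the series. Software named in the submitters' processing notes, without roles, is CASAVA 1.8.2, Bowtie2 2 and Cufflinks 2.2.1, with build mm10. On annotation, filters and reads matching several loci nothing is given in the sources used here. Of the 3859 gene IDs, 3717 were found in GENCODE release M21. Both members matched RefSeq.

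Reads were recovered from FPKM steps, assuming Gaussian fragments of 200 ± 80 nt. Of 4813 low values, 91.4% came out whole to 0.05 read, but the depth was set on them, so no count test was run. Tests used log2(FPKM + 10), which understates low changes, for mean FPKM from 10 upward. limma 3.58.1 (R 4.3.3, two-sided, 7 residual and 2.53 prior degrees of freedom), checked on simulated data, was adjusted over all 1419 transcripts by Benjamini-Hochberg, threshold 0.05. Exact permutation tests (Python 3.11.15, numpy 2.4.6) enumerated the libraries. Members and lists were chosen with earlier results of these data known. Named were the 3 highest means of each list and the 5 highest and 3 lowest correlations at mean FPKM of 1000 or more.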

Additional observations from a re-analysis of the deposited data

How the results depend on the processing

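No paired analysis was possible because each stage has 1 library and the labels give no replicate numbers. Scaling to the recovered miRNA reads called Mir221. So did the same scaling after leaving out 13 transcripts that reach 10000 reads in a library and are listed at 0 in another. That alternative was chosen after seeing the data. So were the permutation tests other than those of the gene slopes from MEF to day 8 and of the slope of the ratio. Under the 2 scalings the slope of Mir221 was 0.26 and 0.29 (limma adjusted p = 0.0243 and 0.0249). The joint limma test of day and day squared, which includes the slope, gave adjusted p = 0.0267 and 0.0208. The day squared term of Mir221 was -0.038 ± 0.028 and -0.051 ± 0.030 (SE) and was not tested alone, so no curvature is read from these calls. The permutation tests of days 3 to 8 against MEF to day 2 called Mir221 at 1.14 (FPKM) and 1.60 (share). They also called Mir222 at 1.07 (share). Limma's step was called for neither gene, but it is a different quantity. The step is fitted beside the slope and adjusted over all tested transcripts, while the permutation tests compare plain means and are adjusted among themselves. The 2 outcomes are therefore not in direct conflict. Over days 3 to 8 alone the slopes turned to -0.18 for both, in limma and by permutation, and that of the log2 ratio to 0.0026 (exact permutation p = 0.956). Leaving out 1 library gave slopes of Mir221 from 0.056 (without MEF) to 0.165 (without day 8), none called, and leaving out days 7 and 8 gave 0.27 (limma adjusted p = 0.162). Leaving out 1 library gave slopes of Mir222 from -0.020 (without MEF) to 0.077, and of the ratio from -0.10 to -0.065. The cause was not tested.

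For the log2 differences, miRNA-read scaling, the same without the 13 and quantile normalization gave, for day 8 minus MEF, 2.09, 2.45 and 1.49 (Mir221) and 1.66, 2.02 and 1.10 (Mir222). For ESC minus MEF they gave 1.41, 1.58 and 0.82, and 1.23, 1.39 and 0.76. For iPSC minus day 8 they gave -4.99, -5.24 and -5.45, and -4.61, -4.86 and -5.03. For ESC minus day 8 the sign reversed, to -0.68, -0.87 and -0.67, and -0.43, -0.63 and -0.34. The scaling without the 13 and quantile normalization gave -2.78 and -3.96 (Mir221) and -2.84 and -3.92 (Mir222) for iPSC minus MEF, and 4.36 and 4.78, and 4.23 and 4.69, for ESC minus iPSC. The other 124 alternative values of these results kept direction and side of the threshold or, for untested differences, stayed within the counting interval. Of all tested transcripts, 327 were called for slope, but 167 without a filter and 146 within days 3 to 8. In the joint test of day and day squared 463 were called, and 305 without a filter. For the step at day 3, 2 were called, with 1 to 9 under the alternatives.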
